A study of Mus musculus with 6 samples.

Results

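Actin filament organization is the set of processes that assemble actin filaments, cap, bundle and sever them, and tie them to membranes and junctions. The 73 genes described here were all those of the deposited gene table, which listed 21362 genes, whose biological process annotation held the Gene Ontology term for actin filament organization. At least 1 biological process term was given for 13919 genes of that table. The term was picked because it was enriched among genes that differed between livers given AAV8-TBG-Cre and livers given AAV8-TBG-GFP, so the values of these genes in that comparison are a description and support nothing by themselves. Of the 73 genes, 72 matched a RefSeq gene by NCBI gene ID, and Akap2 did not.

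Actin monomers join into filaments mainly at the fast-growing barbed end, on nuclei made by the Arp2/3 complex, by formins or by other nucleators. Tropomyosins lie along the filament and tropomodulins cap its pointed end. Small GTPases such as Rac1 and Cdc42 switch these activities on and off. In hepatocytes, filaments line the bile canaliculi and anchor the cell junctions, and stellate cells, macrophages, endothelial cells and bile duct cells have actin networks of their own.

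Liver RNA was sequenced from 6 male Mettl14f/f mice. They were fed a high-fat diet (HFD) from 8 weeks of age for 10 weeks, were then injected through the tail vein, and gave their livers 8 weeks later. The paper states that mice injected in this way stayed on the HFD after the injection. In both groups, Mettl14, which encodes the partner of the RNA methyltransferase METTL3, was flanked by loxP sites. The 3 AAV8-TBG-Cre mice received a viral vector that drives Cre recombinase from the TBG promoter, which is active in hepatocytes, so other liver cells were not targeted. The 3 AAV8-TBG-GFP mice received the same kind of vector with a fluorescent protein and are labelled wild type, although they carried the floxed allele too. Libraries held between 20356466 and 21010527 counts each. Mettl14 itself was at 6.30, 6.43 and 5.81 CPM, the counts scaled to a fixed library size in the GFP livers and at 4.96, 5.38 and 4.86 CPM in the Cre livers. The groups did not overlap, but the log2 difference of -0.29 (SE 0.15) did not pass edgeR's quasi-likelihood test (adjusted p = 0.336), and where the reads lie relative to the deleted part is not known here, so the groups are named by their labels. For males treated alike, at an earlier time after injection, the paper reports less METTL14 protein and less total m6A, a methylation of RNA, in Cre livers. Hepatocyte markers dominated all 6 libraries, with Alb between 54606 and 80785 CPM.

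Of the 73 genes, 52 had enough counts to be tested. No count was assigned to Cav3, Cryaa, Fscn3, Tmsb15a or Tmsb15b2. The other 16 untested genes were Ccl11, Ermn, Kash5, Lmod1, Lmod3, Mybpc2, Mybpc3, Pacsin1, Pcdh15, Pdlim3, Pof1b, Rhof, Tmod2, Tmod4, Tmsb15b1 and Tmsb15l, none of which exceeded 1.07 CPM in any liver. Several of these belong to striated muscle or other tissues, such as the myosin binding proteins Mybpc2 and Mybpc3.

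Levels between genes can be compared only per transcript length, as FPKM, the fragments scaled by length and library size. In the 3 GFP livers, 40 of the 73 genes reached a mean of 1 FPKM, 17 reached 10 FPKM and 33 lay below 1 FPKM. The median of the 73 genes was 1.46 FPKM, beside 0.91 FPKM over all genes of the table. Trf, the plasma iron carrier transferrin, which also carries this annotation, stood far above the rest at 5891 ± 792 FPKM (SD, n = 3). Next came the GTPases Rac1 at 67.1 ± 3.26 FPKM and Cdc42 at 65.7 ± 4.51 FPKM, whose ranges overlapped. Mtss1, a membrane-bending protein with an actin-binding domain, followed at 53.6 ± 15.2 FPKM and overlapped its neighbours on either side. Tpm3, a tropomyosin of non-muscle cells, was at 43.4 ± 3.86 FPKM, above and without overlap with Ctnna1, the alpha-catenin that links cadherins to actin, at 34.3 ± 0.612 FPKM. Other genes among the most abundant were Wasl, an activator of the Arp2/3 complex, at 19.8 ± 0.646 FPKM, Tpm1 at 19.3 ± 3.91 FPKM and Sorbs3 at 18.1 ± 2.42 FPKM, each of which overlapped the gene after it. Here and below, ± gives the SD over 3 mice.

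The comparison of vectors asked which transcripts differed in liver after the TBG-driven Cre. A gene was called where edgeR's unadjusted p-value was under 0.05 and the fold change at least 1.2, which is the threshold of the study. Of the 52 tested genes, 27 were called, or 51.9%, beside 20.5% of the 13431 genes tested. The 23 called higher in the Cre livers were 44.2% of the tested members (12.0% of all genes) and the 4 called lower were 7.69% (8.41% of all genes). As the contrast picked the term, nothing is read from these shares. The median log2 difference of the 52 genes was 0.32, beside -0.0062 over all genes tested, and 37 of the 52 differences were positive. At an adjusted p-value under 0.05 in edgeR, 1 member passed, beside 0.931% of all genes, and none passed when any liver other than Cre replicate 1 was left out, whereas 17 members passed in DESeq2. Groups did not overlap in CPM for 29 of the 52 genes, or 55.8%, beside 27.0% of all genes, and for 26 of the 27 called genes. By rank of edgeR's unadjusted p-value, Tpm1 and Dbn1 were the last inside the threshold, at 0.047 and 0.048, with log2 differences of 0.47 and 0.79. Next in rank were Inppl1 and Tpm3, at 0.083 and 0.11, with log2 differences of 0.21 and 0.23, which also missed the fold threshold. Fitting log2(FPKM + 1) with limma moved the median of all genes to 0.11 and the share of higher calls among all calls from 58.9% to 84.1%, and called 19 members higher and 2 lower, with a members' median 0.20 above that of all genes. Cgnl1, Coro7 and Dbn1 lost their calls on that scale, where Bcl2, Enah, Obsl1, Tmod1 and Trpv4 were not tested, and Arhgap17, Dbn1 and Tpm1 lost theirs when the form of the library name (short or long) was a covariate. The called Tmod1, Espn, Trpv4 and Obsl1 passed the filter on low counts only through the Cre livers, as too few GFP livers reached it. Of the tested members, 17 had a summed count more than 0.01 from a whole number in some liver, among them Sorbs2, Tpm1, Tpm3, Sirpa and Rac2, so some fragments counted for them may be shared with other genes.

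**Figure D1:**
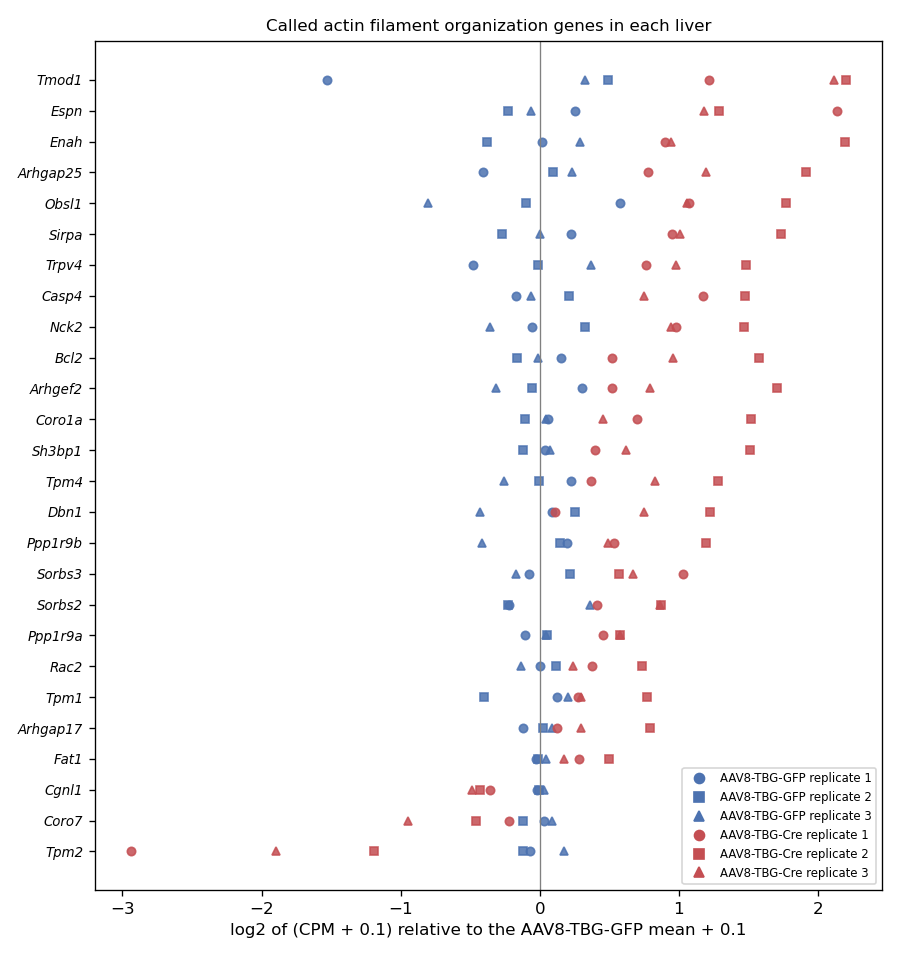
Level in each liver of 26 of the 27 called genes, as log2 of CPM plus 0.1 relative to the mean of the AAV8-TBG-GFP livers, with genes in rows, blue for AAV8-TBG-GFP, red for AAV8-TBG-Cre and a marker shape for each replicate. The red squares of AAV8-TBG-Cre replicate 2 lie farthest to the right in 21 of the 23 higher genes, and the groups overlap for 1 gene, Dbn1.

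Of the 23 higher genes, 21 (91.3%) had their highest level in Cre replicate 2, 2 in Cre replicate 1 and 0 in Cre replicate 3. Among all genes called higher, 75.0% were highest in Cre replicate 2, 9.77% in Cre replicate 1 and 15.3% in Cre replicate 3. Without Cre replicate 2, 18 members were called higher and 4 lower, and each of the 27 genes kept its direction. Markers of some cells other than hepatocytes moved in the same libraries. Those of endothelial cells did not rise, with sums between 133 and 210 CPM in the GFP livers and between 135 and 161 CPM in the Cre livers. Of these, 0 of 8 were called higher and 1 lower, and 0 of 3 tested smooth muscle markers were called. Kupffer cell and macrophage markers summed to between 232 and 261 CPM in the GFP livers and to between 373 and 622 CPM in the Cre livers, and 12 of the 14 were called higher. Cholangiocyte markers summed to between 49.8 and 103 CPM against between 269.7 and 537 CPM, with 6 of 6 called higher, and stellate cell and fibroblast markers to between 249 and 374 CPM against between 493 and 1034 CPM, with 6 of 10 called higher. Most of the cholangiocyte sum was Spp1, at 89.0, 38.0 and 73.3 CPM against 295, 457 and 219 CPM. Cldn4 and Krt7 passed the filter on low counts only through the Cre livers, as too few GFP livers reached it. The called stellate cell and fibroblast markers were Col1a1, Col1a2, Col3a1, Lum, Pdgfra and Pdgfrb. Lrat, Des, Reln and Dcn were not called, with log2 differences of -0.25, 0.13, -0.10 and 0.38. The macrophage, cholangiocyte and stellate cell sums were each highest in Cre replicate 2, and no marker of these lists was at 0 in every library. Over all genes tested, 12.0% were called higher and 8.41% lower. Their part in the members' differences was not tested, and in whole liver a change in the number of such cells cannot be told apart from a change in RNA per cell.

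Tropomyosins are coiled-coil proteins that polymerize along actin filaments and set which motors and severing factors can bind. Tpm2 (NCBI gene ID 22004, chr4:43513726-43523583 in GRCm38) was at 14.6, 14.1 and 17.3 CPM in the GFP livers and at 1.91, 6.65 and 4.04 CPM in the Cre livers. Each Cre liver was below every GFP liver, by -1.86 (SE 0.38) on the log2 scale, the lowest difference among the 52 genes. Tpm4 (ID 326618, chr8:72135288-72153142) went the other way, from 20.8, 17.7 and 14.9 CPM to 23.0, 43.4 and 31.7 CPM, without overlap and with a log2 difference of 0.88 (SE 0.23). Tpm1 (ID 22003, chr9:67022590-67049672) was at 37.0, 25.7 and 39.2 CPM in the GFP livers and at 41.2, 58.0 and 41.7 CPM in the Cre livers. Its groups did not overlap, the log2 difference was 0.47 (SE 0.20), and the call was lost when GFP replicate 1, GFP replicate 2 or Cre replicate 2 was left out, with 0.30 without GFP replicate 2 and 0.29 without Cre replicate 2. Tpm3 (ID 59069, chr3:90072651-90100902) was not called, at 101, 93.5 and 117 CPM against 111, 133 and 123 CPM, where the groups overlapped. Smooth muscle is also rich in tropomyosins, and of its markers Acta2, Myh11, Cnn1 and Tagln 0 of the 3 tested genes were called. Their sum was 28.5, 15.2 and 13.2 CPM in the GFP livers and 9.16, 26.1 and 16.3 CPM in the Cre livers, lowest in Cre replicate 1 and, among the Cre livers, highest in Cre replicate 2, as was Tpm2. Myh11, the smooth muscle myosin, was at 7.78, 3.16 and 2.98 CPM against 0.859, 4.31 and 0.963 CPM, and Cnn1, or calponin, at 0.661, 0.408 and 0.314 CPM against 0.0477, 0.657 and 0.0481 CPM. Both were low in Cre replicates 1 and 3. Acta2 overlapped between the groups, at 9.40, 3.47 and 3.25 CPM against 1.81, 6.74 and 3.85 CPM. Tagln overlapped too, at 10.6, 8.11 and 6.65 CPM against 6.44, 14.4 and 11.4 CPM, and its log2 difference was positive, 0.35. The part of these markers in the Tpm2 difference was not tested.

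Because the tropomyosin genes went in different directions, the promoters of Tpm1, Tpm2 and Tpm4 are shown with that of Srf, the serum response factor that binds the CArG box and activates many cytoskeletal genes. Sequences are from RefSeq on GRCm38.p6, 250 bases before to 50 bases after the annotated start, 5′ to 3′ on the gene's strand. That start need not be the one used in liver. Capitals mark, on either strand, the CArG box, the TEAD motif GGAATG, the AP-1 motifs TGACTCA and TGAGTCA, and the GC box GGGCGG or its complement CCGCCC. The GC box was added to the search after the data were seen. The Srf promoter is chr17:46556113-46556412 (minus strand), that of Tpm1 chr9:67049164-67049463 (minus strand), that of Tpm2 chr4:43523505-43523804 (minus strand) and that of Tpm4 chr8:72135038-72135337 (plus strand).
Srf: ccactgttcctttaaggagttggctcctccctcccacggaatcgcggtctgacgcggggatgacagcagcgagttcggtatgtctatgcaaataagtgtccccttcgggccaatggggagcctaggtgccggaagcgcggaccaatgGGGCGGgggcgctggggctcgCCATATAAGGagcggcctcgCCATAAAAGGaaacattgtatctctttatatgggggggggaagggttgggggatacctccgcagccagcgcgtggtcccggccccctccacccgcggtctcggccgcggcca
Tpm1: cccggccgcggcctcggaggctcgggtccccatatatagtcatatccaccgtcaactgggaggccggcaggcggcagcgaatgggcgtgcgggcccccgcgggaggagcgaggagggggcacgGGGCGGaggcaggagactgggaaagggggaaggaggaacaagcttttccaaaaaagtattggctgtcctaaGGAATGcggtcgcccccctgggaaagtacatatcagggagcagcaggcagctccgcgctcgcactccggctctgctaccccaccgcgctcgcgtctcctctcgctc
Tpm2: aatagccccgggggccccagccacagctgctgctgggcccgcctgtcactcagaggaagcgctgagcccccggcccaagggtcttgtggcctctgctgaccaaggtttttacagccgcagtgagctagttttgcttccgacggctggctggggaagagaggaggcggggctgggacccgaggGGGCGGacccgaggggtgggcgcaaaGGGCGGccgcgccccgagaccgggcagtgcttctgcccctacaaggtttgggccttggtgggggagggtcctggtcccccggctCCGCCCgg
Tpm4: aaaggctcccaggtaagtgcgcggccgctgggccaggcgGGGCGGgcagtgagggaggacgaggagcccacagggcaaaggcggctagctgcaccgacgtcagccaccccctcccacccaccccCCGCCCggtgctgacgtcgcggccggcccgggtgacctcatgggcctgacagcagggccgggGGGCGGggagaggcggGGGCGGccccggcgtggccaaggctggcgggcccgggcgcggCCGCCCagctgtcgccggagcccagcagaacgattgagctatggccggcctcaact

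The Srf promoter held 2 CArG boxes and 1 GC box. In these windows Tpm1 held 1 GGAATG and 1 GC box, Tpm2 held 3 GC boxes and Tpm4 held 5 GC boxes. No CArG box was found in the windows of the 3 tropomyosins, which says only that the letters are not there. Of the 73 genes, 57 had a promoter entry, and a CArG box occurred in 2 of them (3.51%, Srf and Myom1) beside 1.81% of all 27025 genes with an entry. A gene counted where any of its promoter entries held the motif, and the 27025 genes were not limited to those tested here. GGAATG occurred in 12 (21.1%, beside 16.6%), an AP-1 motif in 4 (7.02%, beside 5.95%) and a GC box in 42 (73.7%, beside 38.2%). Among the 22 called genes with an entry, 0 held a CArG box, 3 held GGAATG (Fat1, Tmod1 and Tpm1), 0 held an AP-1 motif and 16 held a GC box. Srf itself was not called, at 19.6, 16.8 and 24.3 CPM in the GFP livers and 19.2, 25.1 and 25.2 CPM in the Cre livers.

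Tropomodulins and leiomodins act at the pointed end, the first as caps and the second as nucleators. Tmod1 was scarce, at 0, 0.306 and 0.262 CPM in the GFP livers and at 0.573, 1.23 and 1.16 CPM in the Cre livers. The groups did not overlap, and the fitted log2 difference of 2.36 (SE 0.72) rests on few counts. The more abundant Tmod3 was not called, at 24.8, 26.4 and 21.8 CPM against 24.0, 26.7 and 20.9 CPM. Of the 10 genes of the filament side and pointed end, 6 were tested, 3 called higher, 1 called lower and 2 not called, with a median log2 difference of 0.35. For this and every other role, the shares over all genes tested were 12.0% called higher and 8.41% called lower.

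**Figure D2:**
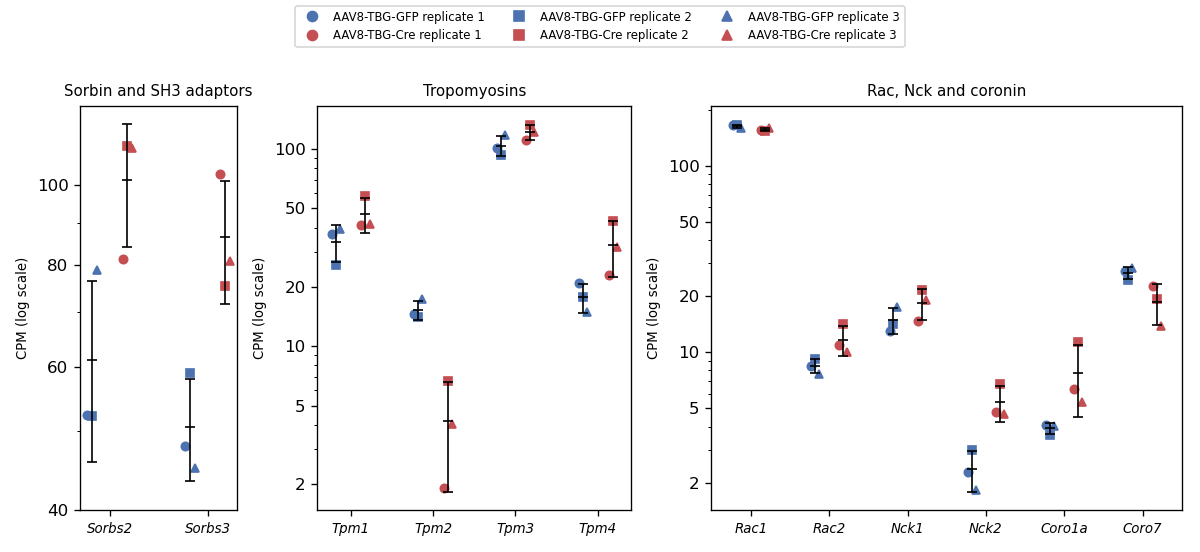
CPM on a log axis for the adaptors Sorbs2 and Sorbs3, 4 tropomyosins and 6 other related genes, with blue for AAV8-TBG-GFP, red for AAV8-TBG-Cre, a marker shape for each replicate, and black bars for the mean and SD of 3 livers. Tpm2 is lower in the red group, Sorbs2, Sorbs3 and Tpm4 are higher, and Rac1 differs little.

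Anchors at adhesions and junctions split in direction as well. Sorbs2 and Sorbs3 encode adaptors with SH3 domains and a sorbin homology region that bind vinculin at focal adhesions. Sorbs2 (ID 234214, chr8:45507788-45827906) was at 52.3, 52.2 and 78.7 CPM in the GFP livers and at 81.4, 112 and 111 CPM in the Cre livers, with a log2 difference of 0.73 (SE 0.20). Its highest GFP liver came close to its lowest Cre liver. Sorbs3, or vinexin (ID 20410, chr14:70180468-70212023), was at 48.0, 58.9 and 45.1 CPM against 103, 75.3 and 80.7 CPM, a log2 difference of 0.77 (SE 0.16) without overlap. Per length, Sorbs3 was at 18.1 ± 2.42 FPKM and Sorbs2 at 12.6 ± 2.75 FPKM in the GFP livers, against 34.1 ± 4.25 FPKM and 23.9 ± 5.39 FPKM in the Cre livers.

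Cgnl1, or paracingulin, a scaffold of epithelial junctions, was at 129, 130.3 and 134 CPM in the GFP livers and at 102, 97.2 and 93.5 CPM in the Cre livers. The groups were far apart against their spread, with a log2 difference of -0.42 (SE 0.10), but the call was lost on the FPKM scale, where the difference was -0.24. Fat1, a large protocadherin that binds Ena/VASP proteins, was at 42.4, 42.8 and 44.5 CPM against 52.6, 61.2 and 48.7 CPM, a log2 difference of 0.33 (SE 0.11). Each Cre liver was above the GFP range, and the call was lost without GFP replicate 1, GFP replicate 2 or Cre replicate 2. The alpha-catenin Ctnna1 was not called, with 135, 136 and 138 CPM in the GFP livers and 150.2, 136 and 151 CPM in the Cre livers. Of the 11 genes of this role, 8 were tested, 3 called higher, 2 called lower and 3 not called, with a median log2 difference of 0.21.

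Among the small GTPases, the ubiquitous Rac1 and Cdc42 were not called. Rac1 was at 165, 165 and 159 CPM in the GFP livers and at 156, 154 and 159 CPM in the Cre livers, and Cdc42 at 157, 139.8 and 152 CPM against 155, 162 and 152 CPM. Their log2 differences were -0.06 (SE 0.10) and 0.06 (SE 0.11). Rac2, the Rac of blood cells, was called higher, at 8.49, 9.18 and 7.70 CPM against 11.0, 14.1 and 10.0 CPM. Its groups did not overlap and the log2 difference was 0.47 (SE 0.17), but the call was lost without GFP replicate 1, GFP replicate 3 or Cre replicate 2, with 0.31 without the last. Arhgap25, a Rac-inactivating protein of leukocytes, was at 1.37, 1.99 and 2.20 CPM against 3.24, 7.27 and 4.38 CPM, a log2 difference of 1.42 (SE 0.35).

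Arhgef2, or GEF-H1, a GTPase activator that is held on microtubules, was at 7.01, 5.46 and 4.55 CPM in the GFP livers and at 8.16, 18.7 and 9.92 CPM in the Cre livers. Its log2 difference was 1.11 (SE 0.33) and 0.67 without Cre replicate 2, and the call held. Sh3bp1, which inactivates Rac at junctions and at the leading edge, was at 2.80, 2.50 and 2.88 CPM against 3.63, 7.97 and 4.24 CPM, with a log2 difference of 0.96 (SE 0.32) that lost its call without GFP replicate 2 and was 0.52 without Cre replicate 2. Arhgap17, a junctional inactivator of Cdc42 and Rac1, was at 12.8, 14.1 and 14.8 CPM against 15.2, 24.2 and 17.1 CPM, a log2 difference of 0.44 (SE 0.18). Cre replicate 2 stood apart from the other Cre livers for these 3 genes, and Arhgap17 lost its call without any liver other than Cre replicate 1, falling to 0.21 without Cre replicate 2. Of the 11 genes of this role, 10 were tested, 5 called higher, 0 called lower and 5 not called, with a median log2 difference of 0.26.

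Most nucleation and elongation genes were not called. Nck1 and Nck2 are SH2 and SH3 adaptors that bring N-WASP to phosphorylated receptors. Nck2 was at 2.29, 3.01 and 1.83 CPM in the GFP livers and at 4.77, 6.74 and 4.67 CPM in the Cre livers, without overlap and with a log2 difference of 1.18 (SE 0.26). Nck1 was not called, at 13.1, 14.1 and 17.5 CPM against 14.7, 21.6 and 19.0 CPM, where the groups overlapped. Enah, or Mena, which keeps barbed ends growing, was at 1.37, 1.02 and 1.68 CPM against 2.62, 6.57 and 2.70 CPM. Its groups did not overlap, and its log2 difference was 1.55 (SE 0.43) in all livers and 0.97 without Cre replicate 2. Wasl, the N-WASP activator of the Arp2/3 complex, was at 87.9, 94.6 and 93.6 CPM against 86.3, 81.4 and 93.5 CPM and was not called. Of the 7 genes of this role, all 7 were tested, 2 called higher, 0 called lower and 5 not called, with a median log2 difference of 0.023.

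Diaph2, an X-linked formin that nucleates unbranched filaments, differed in 1 library. It was at 18.4, 21.4 and 21.7 CPM in the GFP livers and at 3.24, 23.9 and 24.5 CPM in the Cre livers. Cre replicate 1 was thus far below the other 5 livers, which lay close together, and the gene was not called.

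The genes of bundling, turnover and monomer binding include coronins, which bind filaments and regulate the Arp2/3 complex and cofilin. Coro1a, the coronin of leukocytes, was at 4.07, 3.62 and 4.03 CPM in the GFP livers and at 6.39, 11.4 and 5.39 CPM in the Cre livers, with a log2 difference of 0.99 (SE 0.29), or 0.59 without Cre replicate 2. Coro7, a coronin of the Golgi, was called lower, at 27.1, 24.4 and 28.2 CPM against 22.8, 19.3 and 13.8 CPM. Neither gene's groups overlapped, and Coro7's log2 difference of -0.51 (SE 0.18) lost its call without GFP replicate 1 or GFP replicate 3 and was -0.34 without Cre replicate 3. The log2 difference of Coro7 on the FPKM scale was -0.32, without a call.

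Ppp1r9a and Ppp1r9b encode neurabin and spinophilin, scaffolds that bundle filaments and carry protein phosphatase 1. Ppp1r9a was at 10.4, 11.6 and 11.6 CPM in the GFP livers and at 15.4, 16.8 and 16.8 CPM in the Cre livers, with a log2 difference of 0.54 (SE 0.11). Ppp1r9b was at 13.8, 13.4 and 9.0 CPM against 17.5, 27.7 and 17.0 CPM, with a log2 difference of 0.78 (SE 0.24), or 0.51 without Cre replicate 2. Neither gene's groups overlapped, and Ppp1r9a varied least among the called higher genes of this role. Espn, or espin, which bundles filaments in microvilli, was scarce, at 0.610, 0.408 and 0.471 CPM against 2.53, 1.36 and 1.25 CPM, with a log2 difference of 1.77 (SE 0.40). Its highest level was in Cre replicate 1, not in Cre replicate 2. Dbn1, or drebrin, was at 2.59, 2.91 and 1.78 CPM against 2.62, 5.79 and 4.14 CPM. It was the called gene whose groups overlapped, and its log2 difference of 0.79 (SE 0.34) lost its call without any liver other than Cre replicate 1, with 0.47 without Cre replicate 2. Cfl2, the muscle-type cofilin, which severs filaments, was not called, at 46.5, 44.2 and 39.9 CPM against 46.7, 41.0 and 45.5 CPM. Of the 15 genes of this role, 8 were tested, 5 called higher, 1 called lower and 2 not called, with a median log2 difference of 0.66.

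**Figure D3:**
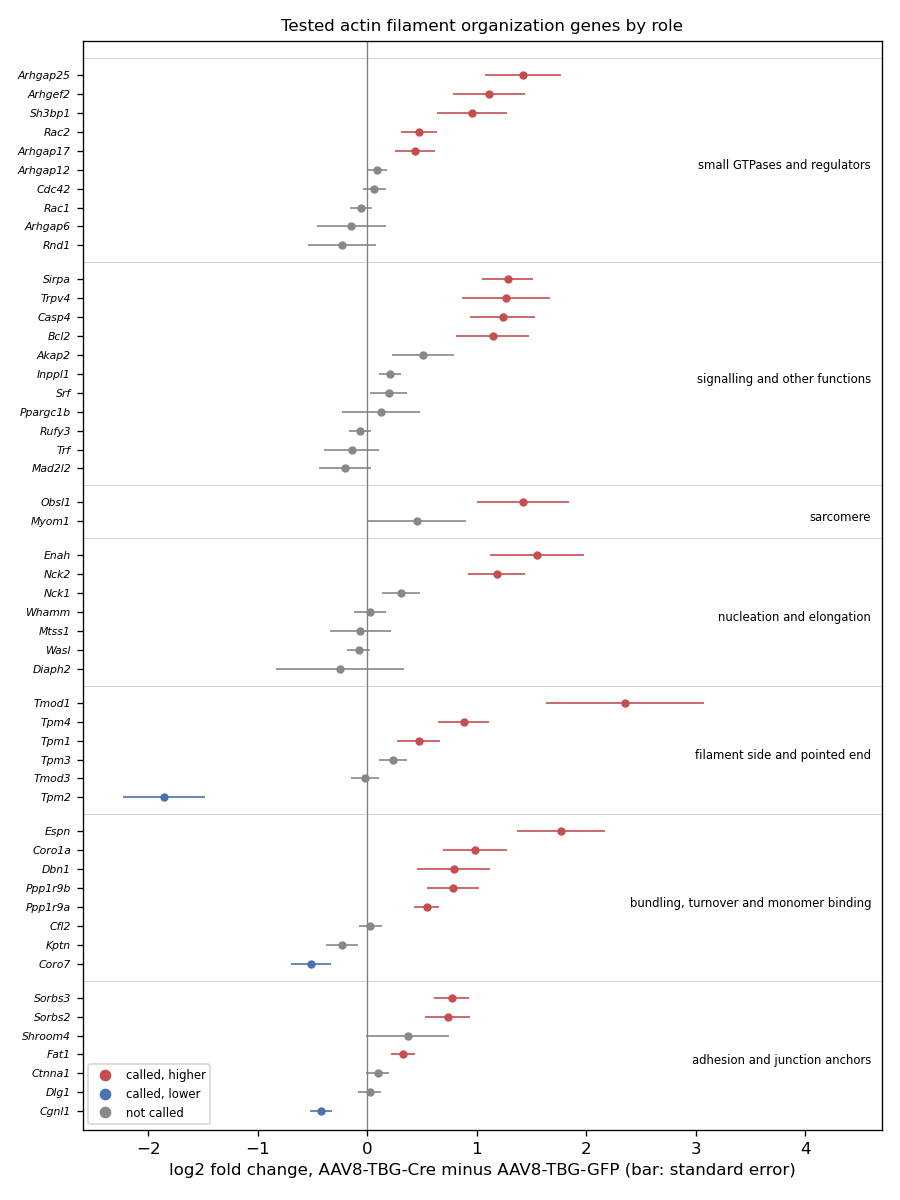
Log2 difference, AAV8-TBG-Cre livers minus AAV8-TBG-GFP livers, for 51 of the 52 tested genes, grouped by role, with bars for the SE of the edgeR fit, red for called higher, blue for called lower and grey for not called. Values run from -1.86 for Tpm2 to 2.36 for Tmod1, and lower calls occur in 3 of the 7 roles.

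The remaining calls were in genes that meet actin through signalling or in the sarcomere. Sirpa, a receptor of myeloid cells that binds CD47 and restrains phagocytosis, was at 23.3, 16.5 and 19.9 CPM in the GFP livers and at 38.5, 66.3 and 40.2 CPM in the Cre livers. All Cre livers were above the GFP range, with a log2 difference of 1.28 (SE 0.23). Casp4, an inflammatory caspase, was at 0.915, 1.22 and 0.995 CPM against 2.48, 3.08 and 1.83 CPM, with a log2 difference of 1.24 (SE 0.30). The antiapoptotic Bcl2 was at 1.42, 1.12 and 1.26 CPM against 1.86, 3.98 and 2.55 CPM, with a log2 difference of 1.14 (SE 0.34), and Trpv4, a calcium channel that responds to osmotic and mechanical stimuli, at 0.305, 0.459 and 0.628 CPM against 0.859, 1.48 and 1.01 CPM, with 1.26 (SE 0.40). None of these 4 overlapped between the groups, and Trpv4 lost its call without GFP replicate 1. Obsl1, a relative of the sarcomere protein obscurin that is also found outside muscle, was at 1.52, 0.918 and 0.523 CPM against 2.20, 3.61 and 2.17 CPM, with a log2 difference of 1.42 (SE 0.42). Of the 14 genes of signalling and other functions, 11 were tested, 4 called higher, 0 called lower and 7 not called (median log2 difference 0.21), and of the 5 sarcomere genes 2 were tested and 1 was called higher. Trf was not called, at 14587, 12429.8 and 16971 CPM against 15821, 11493 and 12503 CPM. The summed level of the 73 genes without Trf was 1987, 1939 and 1884 CPM in the GFP livers and 2085, 2046 and 2019 CPM in the Cre livers, so the Cre livers lay above the GFP livers by a small margin.

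Other genes of the pathway, from lists that share 4 SRF/MRTF and 1 monomer binding gene with the 73, were read in the same fit. Over all genes tested, 12.0% were called higher and 8.41% lower, with a median log2 difference of -0.0062. Targets of SRF and its actin-sensing partner MRTF were called higher in 12 and lower in 1, Tpm2, of 23 tested genes, with a median log2 difference of 0.35, and 10 were not called. The calls in this list include Tpm1, Tpm2 and Tpm4, which belong to the 73 genes picked by this contrast. Fhl2, called higher, passed the filter on low counts only through the Cre livers. The summed level of the list overlapped between the groups, at 1464, 1383 and 1484 CPM against 1293, 1973 and 1628 CPM. Among the other SRF/MRTF targets Flna, a filamin that crosslinks filaments, was at 35.0, 24.5 and 26.3 CPM in the GFP livers and at 37.8, 86.8 and 48.5 CPM in the Cre livers. The actins themselves were not called, with Actb at 588, 513 and 634 CPM against 437, 636 and 587 CPM and Actg1 at 245, 257 and 263 CPM against 193, 355 and 312 CPM. In the list of actins and monomer binding proteins 3 of 13 tested genes were called higher and 0 lower, with a median log2 difference of 0.028. The 3 were the monomer-binding Twf2 and the thymosins Tmsb4x and Tmsb10, which hold actin monomers. Tmsb4x was at 65.6, 52.1 and 59.9 CPM against 92.9, 164 and 91.0 CPM, and Tmsb10 at 20.6, 14.4 and 17.2 CPM against 30.5, 62.8 and 33.4 CPM, both without overlap.

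Of the 9 tested genes of the Arp2/3 complex, 1 was called higher and 1 lower, with a median log2 difference of 0.038. Arpc1b was at 32.9, 27.5 and 35.1 CPM against 47.3, 55.2 and 41.9 CPM, while its paralog Arpc1a was not called at 44.8, 43.8 and 50.1 CPM against 42.6, 39.1 and 41.8 CPM. The subunit paralog Arpc5l was lower, at 27.4, 27.0 and 25.1 CPM against 21.2, 20.4 and 22.2 CPM. Targets of YAP and TEAD, which respond to filament tension, were called higher in 11 and lower in 0 of 21 tested (median 0.37), and 10 were not called. Ankrd1, Fjx1 and Tgfb2, all called higher, passed the filter on low counts only through the Cre livers. The summed level of the list overlapped between the groups, at 313, 298 and 354 CPM against 301, 497 and 404 CPM. Ccn2 was called in both this and the SRF/MRTF list. Ajuba, a LIM adaptor, was at 7.52, 5.41 and 9.32 CPM against 13.4, 28.9 and 31.5 CPM. Ccn1 overlapped, at 9.45, 11.1 and 27.1 CPM against 8.11, 31.1 and 20.5 CPM. Amotl2, not called, was lower in every Cre liver, at 48.8, 49.9 and 48.8 CPM against 42.2, 43.2 and 41.6 CPM. In the lists for other cells, the median log2 difference was 2.45 for cholangiocytes, 1.08 for Kupffer cells and macrophages, 0.98 for stellate cells and fibroblasts, 0.07 for hepatocytes, -0.37 for smooth muscle and -0.31 for endothelial cells. Calls, higher then lower, were 1 and 1 of 5 hepatocyte, 0 and 1 of 8 endothelial, 3 and 1 of 5 neutrophil, 1 and 1 of 3 T and NK cell and 1 and 0 of 1 B cell markers tested, with medians of 0.97, 0.82 and 1.18 for the last 3. S100a8, Cd8a, Nkg7 and Cd79a passed the filter on low counts only through the Cre livers, as did the cholangiocyte markers Cldn4 and Krt7.

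Transcript-level FPKM showed whether 1 transcript or several carried a gene's difference, as a description. These estimates divide shared fragments among overlapping transcripts, and 26.1% of the members' transcript counts were exactly whole numbers, beside 45.4% over all transcripts. In Sorbs3, NM_001271407 was at 5.37, 7.71 and 4.73 FPKM in the GFP livers and in the Cre livers at 19.3, 18.8 and 13.9 FPKM, and NM_001271409 at 6.90, 6.01 and 6.16 FPKM against 10.9, 12.2 and 11.0 FPKM. Among the Sorbs3 transcripts with at least 10% of the FPKM, NM_011366 overlapped, at 5.24, 6.34 and 4.94 FPKM against 6.87, 2.35 and 5.34 FPKM. Hence the share of NM_001271407 in the gene was 32.4 ± 4.24% in the GFP livers and 50.8 ± 5.23% in the Cre livers.

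In Tpm1, NM_001164253 was at 10.1, 5.60 and 12.4 FPKM in the GFP livers and at 18.7, 18.3 and 11.6 FPKM in the Cre livers, and NM_001164252 at 8.15, 7.15 and 5.84 FPKM against 3.33, 6.89 and 7.94 FPKM. Both overlapped between the groups. For Tpm2, NM_001277876 held 74.4% of the FPKM on average and was at 5.19, 4.74 and 6.13 FPKM against 0.43, 2.81 and 1.32 FPKM, and NM_001277875 was at 0.72, 1.14 and 0.92 FPKM against 0.31, 0.34 and 0.20 FPKM. Each of these Tpm2 transcripts was lower in all Cre livers. Sorbs2 was higher in its main transcripts, with NM_001310708 at 6.98, 7.67 and 10.2 FPKM against 12.2, 19.3 and 16.7 FPKM and NM_001310707 at 3.76, 2.85 and 5.01 FPKM against 5.37, 8.50 and 7.06 FPKM, and their shares stayed close. Sirpa likewise was higher in NM_001291020, at 3.19, 2.37 and 3.02 FPKM against 6.56, 11.3 and 7.19 FPKM.

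**Figure D4:**
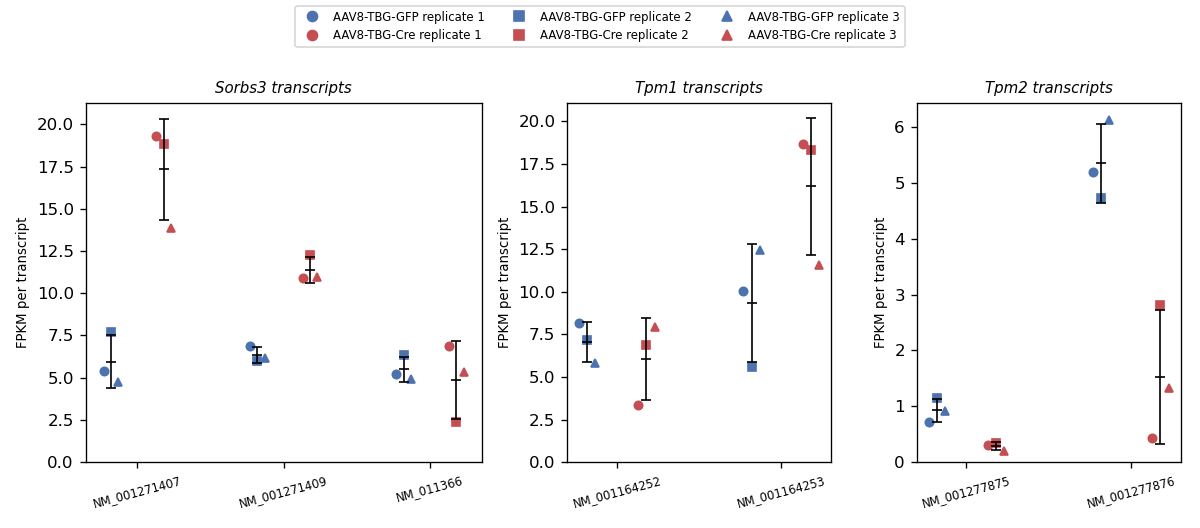
FPKM in each liver of the transcripts of Sorbs3, Tpm1 and Tpm2 that hold at least 10% of their gene's FPKM, with blue for AAV8-TBG-GFP, red for AAV8-TBG-Cre, marker shapes for replicates, and black bars for mean and SD. Sorbs3 NM_001271407 and NM_001271409 are higher in the red group while NM_011366 overlaps, and both Tpm2 transcripts are lower.

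Library names in the labels take a short form (GFP replicates 1 and 2, Cre replicate 1) or a long form (GFP replicate 3, Cre replicates 2 and 3). The labels do not say what the form stands for. A test of the form with the vector as a second factor did not use the contrast that picked the genes. By the same threshold, 11 of the 52 genes (21.2%) were called, beside 15.9% of all genes, with 6 higher and 5 lower in the long-named libraries. Sorbs2 was the member past an adjusted p-value under 0.05, beside 1.39% of all genes. Its log2 difference was 0.52 (SE 0.09, adjusted p = 0.048 in edgeR), and within each vector group its long-named livers were the highest. The adjusted p-value rose to between 0.061 and 0.24 when a liver was left out, to 0.22 without the vector as a factor, and was 0.00040 in DESeq2. When the name form was added to the vector comparison, Sorbs2, Sorbs3 and Tpm2 kept their calls between the vectors, with log2 differences of 0.57, 0.87 and -2.20.

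Mtss1 fell short of the adjusted threshold (log2 difference -0.72, SE 0.14, adjusted p = 0.062 in edgeR). It was at 337, 316 and 369 CPM in the short-named libraries and at 200.2, 195 and 250.4 CPM in the long-named libraries, without overlap, whereas it was not called between the vectors. In DESeq2 its adjusted p-value was 4.3e-05, and over the other alternatives it lay between 0.047 and 0.31. The other members called by the unadjusted threshold were Diaph2, Mad2l2, Nck1, Srf and Tpm2, higher in the long-named libraries, and Arhgap6, Ppargc1b, Rnd1 and Sorbs3, lower in them, and 3 of the 11, Sorbs2, Sorbs3 and Tpm2, were also called between the vectors. The call of Diaph2 rested on Cre replicate 1, since its log2 difference was 1.32 with that liver and 0.11 without it. Without Cre replicate 1, 5 members were called in all, 3 higher and 2 lower.

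**Figure D5:**
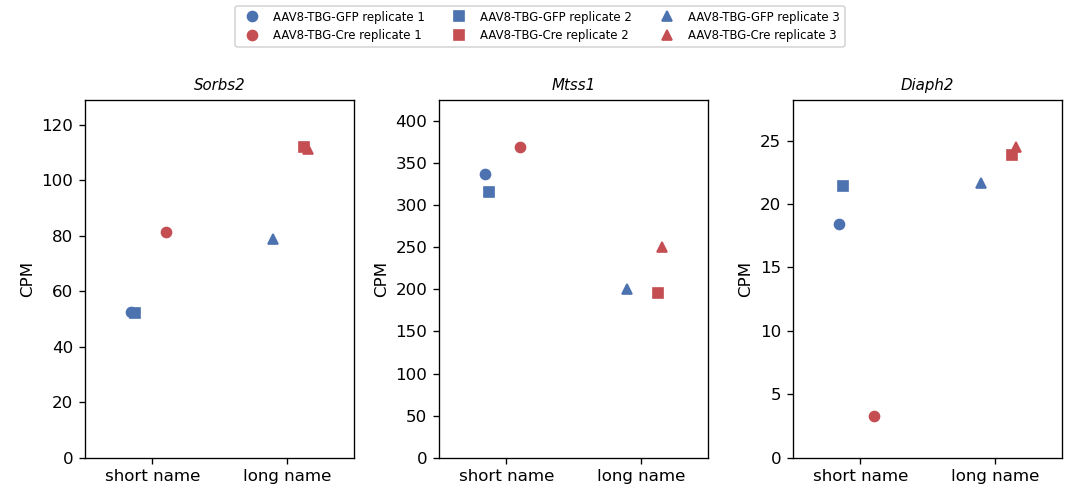
CPM of Sorbs2, Mtss1 and Diaph2 in each liver, split by the short or long form of the library name, with blue for AAV8-TBG-GFP, red for AAV8-TBG-Cre and marker shapes for replicates. Mtss1 is at 316 CPM or more in the short-named and at 250.4 CPM or less in the long-named libraries, and Diaph2 is low in 1 library only.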

How the data were processed

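RNA-seq was measured in 3 AAV8-TBG-Cre and 3 AAV8-TBG-GFP livers, grouped by the sample titles. The authors deposited expected counts per RefSeq transcript, which are estimates without normalization that need not be whole, and FPKM per transcript and per gene, scaled by length and mapped fragments. The submitters' processing notes name HISAT2, Bowtie2, RSEM and mm10 without versions, while the methods of the paper name STAR, HTSeq and DESeq2. How the aligner treated strand is not given in the sources used here, so overlapping and antisense genes cannot be separated.

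Expected counts were summed per NCBI gene ID and rounded (77.5% of the members' sums were within 0.01 of a whole number). All genes were fitted with edgeR 4.0.16 in R 4.3.3 (TMM, filterByExpr, quasi-likelihood test, vector as factor), with Benjamini-Hochberg adjustment over 13431 genes. Libraries of a group differed beyond sampling noise (smallest chi-square per gene 25.8). Steps were tested on simulated data. DESeq2 1.42.0, limma 3.58.1 on FPKM, RLE scaling, other filters and thresholds, a replicate block, the library-name form and leaving out each liver were alternatives. Leaving out the 10 most abundant genes was added after seeing the data.

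The members and lists were chosen with earlier results of these data known. Named genes were the called members, the 10 most abundant, those beside the threshold, and those called for the name form at an adjusted p-value under 0.05. Others named for contrast with a paralog or a list, with Diaph2, were chosen after their values were seen. Roles were assigned by hand. A called member and a pathway list are not reported here by name or value. With 3 mice a group, an SD carries few degrees of freedom, and counting error is large near 1 CPM. Lists were markers and targets of SRF/MRTF, YAP/TEAD, the Arp2/3 complex, actins and monomer binding, and cells of the liver.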

Additional observations from a re-analysis of the deposited data

How the results depend on the processing

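Each of the 27 called members kept its direction in every alternative fit that tested it, and 16 kept the call in each of those, the stricter thresholds aside. Espn, Tmod1 and Trpv4 were not tested with at least 10 counts in every library, nor Bcl2, Enah, Obsl1, Tmod1 and Trpv4 in the filtered limma fits. The number called lower between the vectors fell from 4 to 2 in each of the 3 limma fits of FPKM and at a fold change of at least 1.5. At an adjusted p-value under 0.05, edgeR called 0 higher, 1 lower and 1 in all, and the members passing numbered 17 in DESeq2, 11 without Cre replicate 1, 4 without a filter on low counts, 4 with the name form as a covariate, and 0 in the limma fits and without any other liver. Over all genes the adjusted calls were 125 in edgeR, 1156 in DESeq2, 928 without Cre replicate 1, and 0 without Cre replicate 2 or GFP replicate 2. Leaving out each liver gave 17 to 25 members higher, 3 to 5 lower and 20 to 30 in all, with a median of 0.22 to 0.37. For the name form it gave 3 to 8 higher, 2 to 5 lower and 5 to 12 in all. Without the vector as a factor the name form called 3 lower and 7 in all, and the log2 difference of Tpm2 between name forms turned from 0.76 to -0.13. Same-numbered livers did not deviate together throughout (correlations 0.0093, -0.26 and 0.21), and the main fit used no pairing. Differently numbered livers were not compared, so these correlations cannot exclude one. A replicate block gave 21 higher and 4 lower members and 7 adjusted calls over all genes. The causes of these shifts were not tested. The median of the T and NK cell markers, with 3 tested genes, was -0.17 in DESeq2, where more of them were tested. Counts near 1 CPM, as for Tmod1, Espn and Trpv4, limit the precision of their fold changes.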
